A study of Mus musculus with 13 samples.

Results

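The large bowel reclaims salt and water through a small set of membrane proteins, and 10 of their genes are described here on arrays of mouse rectum: the anion exchangers Slc26a3 and Slc26a2, the sodium-proton exchangers Slc9a3 and Slc9a2, the water channels Aqp8 and Aqp4, the epithelial sodium channel subunits Scnn1a, Scnn1b and Scnn1g, and the chloride channel Cftr. The genes were chosen by name for their role, but with earlier results of these data known. Their counts set against all genes are therefore no independent test. Each gene was read from the transcript cluster annotated to it alone. All 10 had 1 such cluster among the 19938 genes of the table. The 13 Affymetrix Mouse Gene 1.0 ST arrays each hold RNA of 1 piece of tissue. The pieces are 5 adenocarcinomas (mice of 53, 60, 60, 64 and 80 weeks, 2 female and 3 male), 4 pieces of adjacent inflamed mucosa (53, 60, 60 and 64 weeks, 1 female and 3 male) and 4 pieces of normal rectal mucosa (53, 60, 64 and 70 weeks, 2 female and 2 male). Tumour and inflamed tissue came from rectal prolapses of α6fl/fl Villin-Cre mice, which lack the laminin receptor subunit α6 integrin in the cells where the Villin promoter drives Cre, the intestinal epithelium. Normal mucosa came from mice called control in one label, while the genotype label of all 13 samples reads α6fl/fl Villin-Cre. Tumour and inflamed tissue was dissected from frozen sections, but normal tissue was scraped off. The way of collecting and the disease therefore cannot be told apart in any difference from normal mucosa.

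In the surface epithelium of the distal bowel, sodium enters by exchange for protons and chloride by exchange for bicarbonate, a coupled pair that absorbs salt without moving net charge. In the distal colon and rectum sodium also enters through the epithelial sodium channel (ENaC), a channel of 3 kinds of subunit that aldosterone controls. Water follows the salt, in part through aquaporins, whereas crypt cells secrete chloride through the channel Cftr.

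Values are log2 RMA values, so a difference of 1 is a 2-fold change, and differences are given ± SE from limma with p-values adjusted over all 19938 genes. A gene is called where this adjusted p is below 0.05. Array medians lay between 6.41 and 6.59. Probes for Xist on male arrays and for 3 Y-linked genes on female arrays, which have no transcript to read, reached 5.57, so values near that level do not show that a gene is expressed. The 8 pan-epithelial markers averaged between 12.07 and 12.14 on the tumour arrays, 11.83 and 11.98 on the inflamed arrays and 12.14 and 12.29 on the normal arrays. The 6 smooth muscle markers averaged 9.11 ± 0.12 in tumour, 11.52 ± 0.45 in inflamed and 7.13 ± 0.81 in normal mucosa (SD, n = 5, 4 and 4). One normal array stood apart: the 7 squamous epithelium markers averaged 10.88 on normal mucosa 1 and between 6.26 and 6.58 on the other normal arrays. No member's call was lost without that array, and Aqp4 gained one, given below. In bulk tissue, fewer cells of a type and less RNA per cell cannot be told apart. Ages and sexes in the labels set most samples of a group apart as different mice, but not samples 2 and 3 of the adenocarcinomas or of the inflamed mucosa, all from males of 60 weeks. If those came from 1 mouse, the p-values measure in part the spread within an animal.

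Adenocarcinomas held less transcript of 8 of the 10 transport genes than normal mucosa. Cftr was higher, and Aqp4 did not pass. Over all genes 35.8% were called in this comparison, 19.4% lower and 16.4% higher. All 8 falls were of at least 2-fold, as were those of 2.63% of all genes. For the 8 lower genes no tumour array overlapped a normal array, and for Cftr none did in the other direction, against 13.9% and 13% of all genes. Inflamed mucosa was lower than normal mucosa in 6 of the 10 genes and higher in Cftr and Aqp4, where 26.7% of all genes were called, 13% lower and 13.7% higher. The falls of Slc9a2, Aqp8 and Scnn1g were of at least 2-fold, against 1.06% of all genes. Inflamed and normal arrays did not overlap for 7 genes that were lower and 2 that were higher, against 15.5% and 12.0% of all genes. Between adenocarcinoma and inflamed mucosa 6 of the 10 were lower in tumour and none was higher in limma's test, also at an unadjusted p below 0.05. Of all genes 7.12% were called, 4.21% lower and 2.91% higher. Tumour and inflamed arrays did not overlap for 7 of the 10, all lower in tumour, against 6.51% of all genes lower and 5.27% higher without overlap. Slc26a3, Slc9a3, Aqp8 and Scnn1g were lower by at least 2-fold, against 1.35% of all genes, and Slc9a3 by at least 16-fold, against 0.01%. The median difference over the 10 genes was -1.80 for adenocarcinoma minus normal, -0.87 for inflamed minus normal and -0.90 for adenocarcinoma minus inflamed. The medians over all genes were -0.10, -0.09 and -0.01 in the same order of comparisons. Each group enters 2 of the 3 comparisons, so they are not independent of each other. Centring each array on its median over genes, which moved no count for the 10 genes, turned the calls over all genes to 2491 higher and 8612 lower in tumour minus normal, against 3266 and 3867 without it, and to 1875 higher and 9510 lower in inflamed minus normal, against 2730 and 2592. Centring on the pan-epithelial markers turned them the other way, to 4079 higher and 1943 lower in tumour minus normal and to 7038 higher and 543 lower in inflamed minus normal, while tumour minus inflamed became 335 higher and 3841 lower, against 581 and 839. With that centring 9, 7 and 7 of the 10 genes were called in the 3 comparisons.

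The average of the mature colonocyte markers moved in the direction of most of the transport genes, but the markers moved unequally. These 8 markers averaged 11.03 ± 0.22 in tumour, 11.97 ± 0.10 in inflamed and 12.56 ± 0.07 in normal mucosa (SD, n = 5, 4 and 4), and 6 were called lower in tumour and 4 in inflamed than in normal mucosa. Car4, a surface carbonic anhydrase, lay between 6.36 and 7.96 in tumour, 11.66 and 12.54 in inflamed and 13.05 and 13.28 in normal mucosa. Mep1a had the next largest fall, with means of 8.14, 9.70 and 11.65 in the same groups. Ceacam1 differed far less, with means of 13.01, 13.03 and 13.16. So did Krt20 (11.84, 12.03 and 12.20), Muc3 (12.82, 12.94 and 13.05) and Vil1 (11.18, 11.17 and 11.54). No defining marker of this list was at background. The 6 fibroblast and 5 endothelium markers were all called higher in both diseased tissues than in normal mucosa. The part of these cell types in the levels of the transport genes was not tested.

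**Figure D1:**
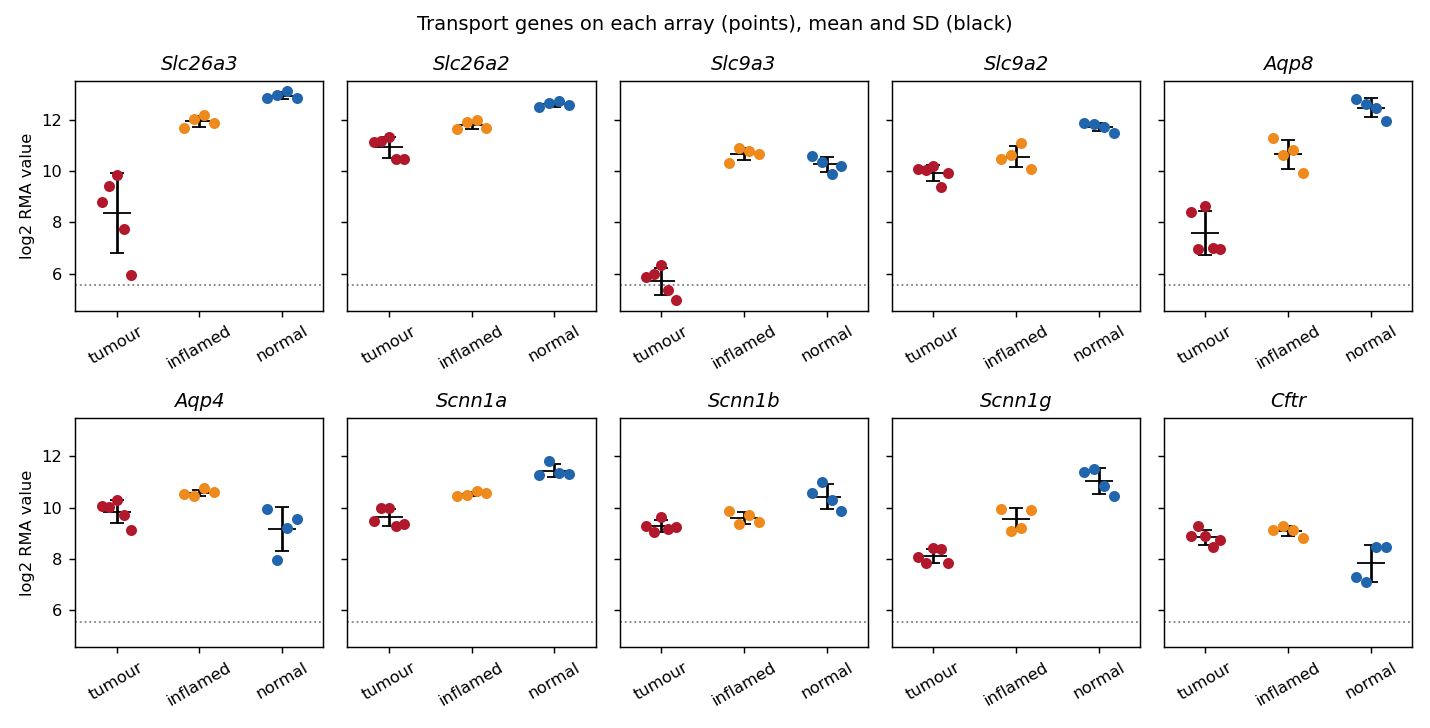
Each panel shows 1 gene, with the log2 RMA value of every array (points) for 5 adenocarcinomas, 4 inflamed and 4 normal pieces of mucosa, the mean and the SD (black). The dotted line at 5.57 is the highest reading of a transcript that the animal's sex lacks. Slc9a3 lay between 4.97 and 6.32 in tumours, near that line, and at 9.89 or higher on the other arrays.

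Aqp8, Slc26a3 and Slc9a3 had falls in tumour whose estimate passed 16-fold, as did that of 0.0552% of all genes. Without adenocarcinoma 6 the log2 difference of Slc26a3 was -3.99, just short of 16-fold. The sequences just before the starts of these 3 genes are shown beside that of Cftr, the gene called higher, because they differ in composition. They are the 250 bases upstream of a start in the RefSeq table of GRCm38.p6, from which 6 of the 10 genes were read. Slc9a2 and Scnn1a had no entry there. Slc26a2 and Aqp4 were left out, so the composition of their sequences is not given. Capitals mark any match, on either strand, to TATAAA (the TATA box), GTTAAT (a half-site of the HNF1 factors), TTTATG (a core bound by CDX factors) or AGAACA (a half-site of steroid receptors). The positions are chr12:31437969-31438218 for Slc26a3, chr13:74121163-74121412 for Slc9a3, chr7:123462044-123462293 for Aqp8 and chr6:18170437-18170686 for Cftr, all on the plus strand.
Slc26a3: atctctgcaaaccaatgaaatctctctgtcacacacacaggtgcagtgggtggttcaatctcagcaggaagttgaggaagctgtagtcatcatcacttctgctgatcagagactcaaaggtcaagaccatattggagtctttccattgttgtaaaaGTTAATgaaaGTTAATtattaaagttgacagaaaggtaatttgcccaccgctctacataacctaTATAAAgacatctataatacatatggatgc
Slc9a3: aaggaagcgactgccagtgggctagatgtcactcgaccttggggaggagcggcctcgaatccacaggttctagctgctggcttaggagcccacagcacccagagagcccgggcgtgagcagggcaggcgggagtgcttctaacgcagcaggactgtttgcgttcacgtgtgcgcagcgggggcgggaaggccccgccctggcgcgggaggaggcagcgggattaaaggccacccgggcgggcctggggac
Aqp8: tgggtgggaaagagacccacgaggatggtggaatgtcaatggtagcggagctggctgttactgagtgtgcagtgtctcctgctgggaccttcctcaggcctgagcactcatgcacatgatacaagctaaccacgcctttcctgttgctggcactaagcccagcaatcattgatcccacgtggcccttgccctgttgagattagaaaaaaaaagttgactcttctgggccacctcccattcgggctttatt
Cftr: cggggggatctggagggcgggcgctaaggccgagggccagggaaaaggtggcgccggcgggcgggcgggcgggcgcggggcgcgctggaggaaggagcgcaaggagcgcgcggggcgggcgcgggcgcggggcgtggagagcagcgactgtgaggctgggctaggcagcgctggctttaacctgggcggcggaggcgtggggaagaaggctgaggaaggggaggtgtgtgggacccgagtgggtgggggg
The Slc26a3 sequence was 38.8% G and C, with 1 CpG, and held TATAAA 30 bases and GTTAAT 94 and 84 bases before the start. The Aqp8 sequence was 52.4% G and C, the same as the median of all 32851 promoters. Slc9a3 at 67.6% with 19 CpGs and Cftr at 76.4% with 30 CpGs were richer, and none of the 4 motifs occurred in Slc9a3, Aqp8 or Cftr. Of all promoters over the same 250 bases, 12.4% held TATAAA, 6.43% GTTAAT, 10.8% TTTATG and 16.1% AGAACA. Scnn1g, at 65.2% G and C, held TTTATG 7 bases before its start, and Scnn1b held none of the motifs. The 3 genes with the largest falls in tumour thus had sequences of 38.8%, 52.4% and 67.6% G and C. A match is a run of letters and shows no binding.

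Slc9a3 (transcript cluster 10406176), the apical sodium-proton exchanger of absorptive cells, separated the tumours from all other arrays. It read 5.88, 5.99, 6.32, 5.38 and 4.97 in adenocarcinomas 1, 2, 3, 4 and 6, against 10.32, 10.89, 10.79 and 10.66 in inflamed mucosa 1 to 4 and 10.60, 10.35, 9.89 and 10.20 in normal mucosa 1, 2, 4 and 6. Every tumour lay more than 3 log2 units below every other array, and adenocarcinomas 4 and 6 lay under the level that absent transcripts reach. Tumour was 23.4-fold below normal mucosa (-4.55 ± 0.24, n = 5 and 4, adjusted p = 2.75e-08). The tumour minus inflamed difference was -4.95 ± 0.24 (31.0-fold lower, n = 5 and 4, adjusted p = 7.5e-08), the largest fall of all 19938 genes in that comparison. With tumour values this close to background, the fold has only the precision that background allows. Inflamed and normal mucosa overlapped in Slc9a3, at 0.41 ± 0.25 with a 95% interval of -0.13 to 0.94 (adjusted p = 0.222).

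Slc9a2 (cluster 10345855), the other apical sodium-proton exchanger, followed another course. It lay between 9.38 and 10.21 in adenocarcinoma, between 10.09 and 11.08 in inflamed mucosa and between 11.47 and 11.85 in normal mucosa. Inflamed mucosa was below normal mucosa on every array (-1.15 ± 0.20, 2.22-fold lower, adjusted p = 0.00101), and so was tumour (-1.79 ± 0.19, 3.45-fold lower, adjusted p = 1.1e-05). Tumour and inflamed arrays overlapped, and their difference of -0.63 ± 0.19 missed the threshold (adjusted p = 0.0617). With tumour and inflamed arrays of 1 number taken as pairs and the replicate number as a block, it passed (-0.63 ± 0.10, n = 4 pairs, adjusted p = 0.00911). Whether Slc9a2 and Slc9a3 differed from each other in the inflamed minus normal difference was not tested.

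Slc26a3 (cluster 10395201), the apical exchanger that takes up chloride for bicarbonate, and known in humans for congenital chloride diarrhoea, varied most among the tumours. It read 8.78, 9.40, 9.86, 7.75 and 5.95 in adenocarcinomas 1, 2, 3, 4 and 6, against 11.68, 12.03, 12.19 and 11.86 in inflamed mucosa 1 to 4 and 12.83, 12.96, 13.09 and 12.85 in normal mucosa 1, 2, 4 and 6. The 3 groups did not overlap, and adenocarcinoma 6 was near the level of absent transcripts. Tumour was 24.0-fold below normal mucosa (-4.59 ± 0.57, n = 5 and 4, adjusted p = 4.53e-05) and 12.0-fold below inflamed mucosa (-3.59 ± 0.57, adjusted p = 0.00198). Without adenocarcinoma 6 these differences were -3.99 and -2.99. The inflamed minus normal difference of -1.00 ± 0.60 did not pass (adjusted p = 0.216), although every inflamed array lay below every normal one, as in 15.5% of all genes. The SE comes from all 3 groups, the widely spread tumours included, and the difference passed with the 2 groups alone (-1.00 ± 0.12, adjusted p = 0.000685) and without adenocarcinoma 6 (adjusted p = 0.0417). It was -1.60 with the replicate block over all arrays (adjusted p = 0.0401), a fit that also blocks the normal arrays, which their numbers were not found to pair.

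Slc26a2 (cluster 10459183), a sulfate transporter of the same family, fell in smaller steps. It lay between 10.46 and 11.34 in adenocarcinoma, between 11.65 and 11.97 in inflamed mucosa and between 12.48 and 12.72 in normal mucosa, with no overlap. Tumour was 3.21-fold below normal mucosa (-1.68 ± 0.17, adjusted p = 8.16e-06) and 1.85-fold below inflamed mucosa (-0.89 ± 0.17, adjusted p = 0.00695). Inflamed mucosa was 1.73-fold below normal mucosa (-0.79 ± 0.18, adjusted p = 0.0063). That call ended when arrays were centred on the pan-epithelial markers (-0.50, adjusted p = 0.0543).

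Aqp8 (cluster 10557300), a water channel of surface colonocytes, fell in inflamed mucosa and again in tumour. It read 8.40, 6.96, 8.63, 6.99 and 6.97 in adenocarcinomas 1, 2, 3, 4 and 6, against 11.27, 10.63, 10.80 and 9.90 in inflamed mucosa 1 to 4 and 12.80, 12.61, 12.47 and 11.95 in normal mucosa 1, 2, 4 and 6. Adenocarcinomas 1 and 3 lay over 1 log2 unit above the other 3 tumours, and the 3 groups did not overlap. Tumour was 29.2-fold below normal mucosa (-4.87 ± 0.38, n = 5 and 4, adjusted p = 6.63e-07) and 8.35-fold below inflamed mucosa (-3.06 ± 0.38, adjusted p = 0.000321). Inflamed mucosa was 3.50-fold below normal mucosa (-1.81 ± 0.40, n = 4 and 4, adjusted p = 0.005).

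Aqp4 (cluster 10457614), a water channel of the basolateral membrane in several epithelia, went the other way in inflamed mucosa. It read 10.05, 10.01, 10.31, 9.72 and 9.14 in adenocarcinomas 1, 2, 3, 4 and 6, against 10.51, 10.44, 10.75 and 10.59 in inflamed mucosa 1 to 4 and 9.96, 7.96, 9.23 and 9.57 in normal mucosa 1, 2, 4 and 6. Inflamed arrays lay above all others, and normal mucosa 2 was lowest by over 1 log2 unit. Inflamed mucosa was 2.63-fold above normal mucosa (1.40 ± 0.34, n = 4 and 4, adjusted p = 0.00914). Tumour and normal arrays overlapped (0.67 ± 0.32, adjusted p = 0.117), and this difference rested on single arrays. Leaving out normal mucosa 2 gave 0.26 (adjusted p = 0.409), and leaving out normal mucosa 1 gave 0.93 (adjusted p = 0.0377), the lowest and highest values when each array was dropped in turn. Tumour lay below inflamed mucosa on every array, but the difference of -0.73 ± 0.32 did not pass (adjusted p = 0.232) except with the 2 groups alone (adjusted p = 0.049) or as pairs with the replicate block (-0.55, adjusted p = 0.0167). Aqp4 is also known from glia, and the 3 enteric glia markers measured read no more than 6.15 on average on any array.

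The ENaC subunits were lower in both diseased tissues, with Scnn1g moving most. Scnn1g (cluster 10557111), the γ subunit, read 8.09, 7.86, 8.45, 8.38 and 7.86 in adenocarcinomas 1, 2, 3, 4 and 6, against 9.96, 9.08, 9.22 and 9.91 in inflamed mucosa 1 to 4 and 11.39, 11.51, 10.82 and 10.45 in normal mucosa 1, 2, 4 and 6. The 3 groups did not overlap. Tumour was 7.54-fold below normal mucosa (-2.92 ± 0.24, adjusted p = 1.21e-06) and 2.67-fold below inflamed mucosa (-1.42 ± 0.24, adjusted p = 0.00311), and inflamed mucosa 2.83-fold below normal mucosa (-1.50 ± 0.26, adjusted p = 0.000859).

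Scnn1a (cluster 10541885), the α subunit that the channel needs to conduct, lay between 9.30 and 9.99 in adenocarcinoma, between 10.45 and 10.65 in inflamed mucosa and between 11.25 and 11.81 in normal mucosa. Again no groups overlapped. Tumour was 3.51-fold below normal mucosa (-1.81 ± 0.16, adjusted p = 2.18e-06) and 1.88-fold below inflamed mucosa (-0.91 ± 0.16, adjusted p = 0.00371). Inflamed mucosa was 1.87-fold below normal mucosa (-0.90 ± 0.17, adjusted p = 0.00177). Scnn1b (cluster 10557124), the β subunit, lay between 9.04 and 9.65 in adenocarcinoma, between 9.38 and 9.86 in inflamed mucosa and between 9.86 and 10.98 in normal mucosa. It moved least of the 3: tumour was 2.23-fold below normal mucosa (-1.16 ± 0.19, adjusted p = 0.000448) and inflamed mucosa 1.79-fold below (-0.84 ± 0.20, adjusted p = 0.0087). Tumour and inflamed arrays overlapped in Scnn1b, at -0.32 ± 0.19 with a 95% interval of -0.73 to 0.10 (adjusted p = 0.425). Its highest inflamed array (inflamed mucosa 1, 9.861) lay only just under its lowest normal array (normal mucosa 6, 9.863).

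Cftr (cluster 10536563), the cyclic AMP-activated chloride channel of crypt cells, was higher in both diseased tissues. It read 8.90, 9.28, 8.89, 8.47 and 8.75 in adenocarcinomas 1, 2, 3, 4 and 6, against 9.13, 9.31, 9.13 and 8.81 in inflamed mucosa 1 to 4 and 7.32, 7.13, 8.46 and 8.46 in normal mucosa 1, 2, 4 and 6. The normal arrays formed a low pair (1 and 2) and a high pair (4 and 6), and the high pair lay just under the lowest tumour. Tumour was 2.02-fold above normal mucosa (1.02 ± 0.26, n = 5 and 4, adjusted p = 0.00938) and inflamed mucosa 2.38-fold above it (1.25 ± 0.28, n = 4 and 4, adjusted p = 0.00532). Leaving out each array in turn gave differences between 0.78 and 1.22 for tumour and between 1.01 and 1.46 for inflamed mucosa, all called. Tumour and inflamed arrays overlapped (-0.24 ± 0.26, 95% interval -0.81 to 0.33, adjusted p = 0.748).

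**Figure D2:**
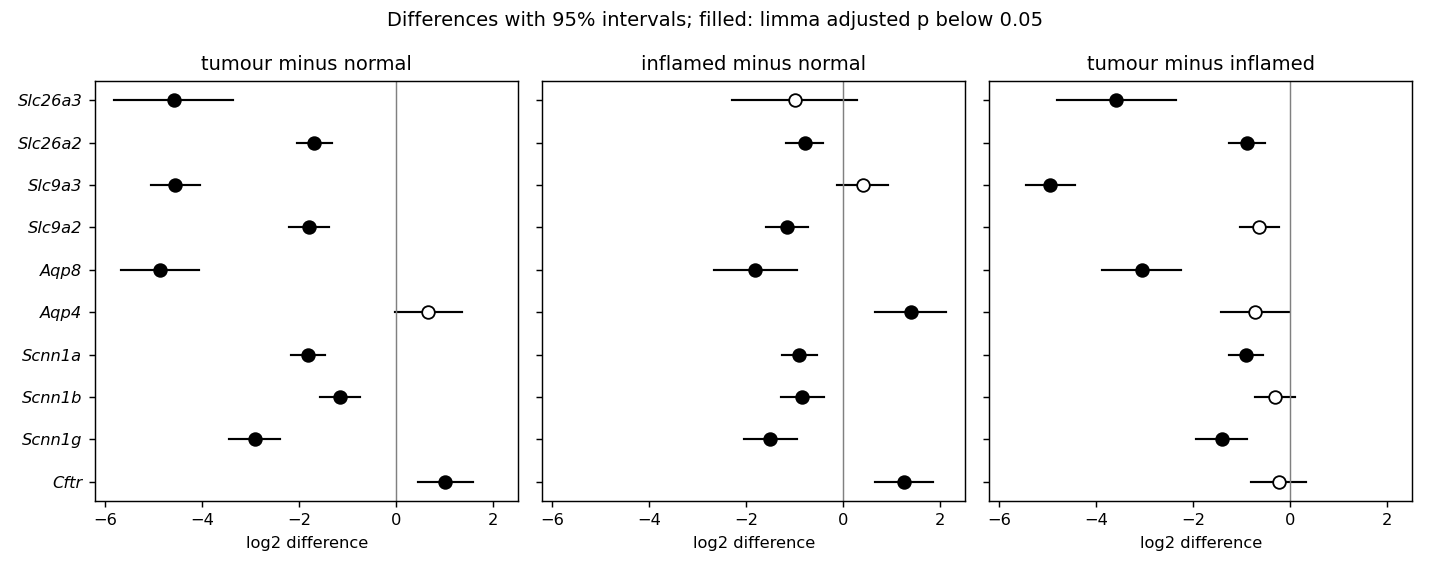
Log2 differences of the 10 genes in the 3 comparisons, with 95% intervals from limma; filled points passed an adjusted p below 0.05. Slc9a3 was at -4.55 in tumour minus normal and at 0.41 in inflamed minus normal, while Cftr was above 0 in both.

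Tumour and inflamed samples of 1 number share sex and age in the labels. Normal samples 1, 2 and 4 share them too, but normal sample 6 is of 70 weeks and adenocarcinoma 6 of 80. Within the 4 pairs of tumour and inflamed arrays, all 10 genes were lower in tumour in all 4 pairs. Of all genes, 16.8% were lower in all 4. Slc9a3 differed by -4.44, -4.90, -4.46 and -5.28 in pairs 1, 2, 3 and 4, and Slc26a3 by -2.90, -2.63, -2.33 and -4.11. The smallest differences were in Cftr, at -0.24, -0.03, -0.24 and -0.34, and in Scnn1b, between -0.58 and -0.05. Fitted as pairs alone with the replicate block, 8 of the 10 genes were called lower in tumour, as against 6 without pairing, the additions being Slc9a2 and Aqp4. Calls over all genes were also more numerous in that fit, at 1907 (732 higher, 1175 lower) against 1420.

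**Figure D3:**
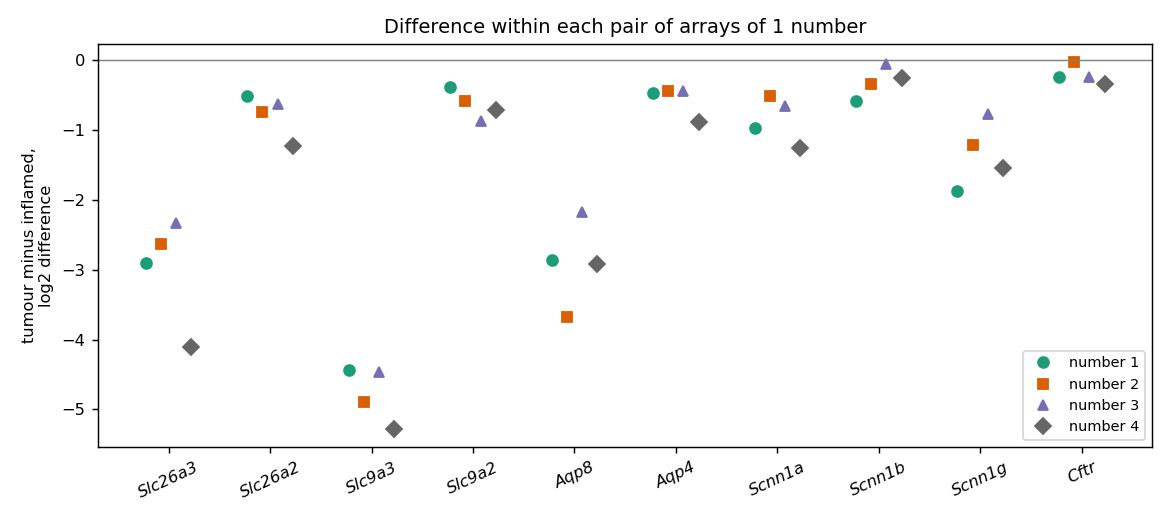
Tumour minus inflamed log2 difference for each gene in the 4 pairs of arrays that carry 1 number (symbols by number). All 40 points lie below 0, from -5.28 for Slc9a3 in pair 4 to -0.03 for Cftr in pair 2.

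Beyond the 10 genes, 37 other genes of colonic ion and water transport were read in the same way. Of these 37, 17 were lower and 4 higher in tumour than in normal mucosa, 10 lower and 5 higher in inflamed than in normal mucosa, and 9 lower and 1 higher in tumour than in inflamed mucosa. Their median differences were -0.27, -0.18 and -0.17 in the same order. The shares of all genes called lower and higher were those given above for each comparison.

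The largest fall among them was in Atp12a (cluster 10415446), the colonic proton-potassium pump. It read 8.48, 8.44, 9.73, 9.12 and 8.38 in adenocarcinomas 1, 2, 3, 4 and 6, against 10.25, 10.28, 10.36 and 9.89 in inflamed mucosa 1 to 4 and 12.31, 12.32, 11.94 and 11.74 in normal mucosa 1, 2, 4 and 6. The groups did not overlap, and tumour was 9.51-fold below normal mucosa (adjusted p = 5.68e-07) and inflamed mucosa 3.69-fold below it (adjusted p = 0.000172). Among the other potassium genes, Kcnn4, a calcium-gated channel, was 2.24-fold higher in tumour (adjusted p = 0.00207) and 1.76-fold higher in inflamed mucosa (adjusted p = 0.0293) than in normal mucosa. Kcnma1, a large-conductance channel also made by smooth muscle, was 2.10-fold higher in inflamed than in normal mucosa (adjusted p = 2.12e-05) but differed by 0.03 between tumour and normal mucosa. Its inflamed rise went with the smooth muscle markers given above, whose part in it was not tested. Kcne3, the partner subunit of Kcnq1, did not pass in any comparison.

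The scaffolds that hold Slc9a3 at the membrane moved in opposite directions. Slc9a3r1 was 3.18-fold lower in tumour (adjusted p = 3.18e-07) and 2.14-fold lower in inflamed mucosa (adjusted p = 3.34e-05) than in normal mucosa. Slc9a3r2, which endothelial cells also make, was 1.63-fold higher in tumour (adjusted p = 0.000879) and 2.77-fold higher in inflamed mucosa (adjusted p = 6.18e-06). The 5 endothelium markers averaged 8.74 ± 0.15 in tumour, 8.43 ± 0.28 in inflamed and 6.11 ± 0.33 in normal mucosa (SD, n = 5, 4 and 4), and all 5 were called higher in both comparisons with normal mucosa. Aqp1, a water channel of endothelium, was 2.79-fold higher in tumour (adjusted p = 0.000875) and 3.06-fold higher in inflamed mucosa (adjusted p = 0.00109). The part of endothelium in the levels of Slc9a3r2 and Aqp1 was not tested. The exchanger Slc9a8 and the scaffold Pdzk1 did not pass, and Pdzk1 was near background at 5.25, 5.15 and 5.41 on average in tumour, inflamed and normal mucosa.

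Of 7 other anion and chloride genes 4 were lower and 1 higher in tumour than in normal mucosa. The sodium-bicarbonate cotransporter Slc4a4 was 4.14-fold lower (adjusted p = 6.41e-05) and the chloride channel Clcn2 2.00-fold lower (adjusted p = 0.000436). The calcium-gated chloride channel Ano1 was 1.45-fold lower (adjusted p = 0.00146). Slc12a2, the basolateral cotransporter that loads chloride for secretion, was the gene that rose, as Cftr did. It read 11.37, 11.66, 11.64, 11.47 and 11.84 in adenocarcinomas 1, 2, 3, 4 and 6, against 11.35, 11.41, 11.35 and 11.16 in inflamed mucosa 1 to 4 and 10.25, 10.25, 10.67 and 10.87 in normal mucosa 1, 2, 4 and 6. Tumour was 2.12-fold above normal mucosa (adjusted p = 4.43e-05) and inflamed mucosa 1.75-fold above it (adjusted p = 0.00109). Normal mucosa 1 and 2 were the lowest arrays for Slc12a2, as they were for Cftr and also for Kcnn4, Kcnq1 and Aqp1. Of 4 sodium pump genes, the β subunit Atp1b1 was 1.30-fold lower in tumour (adjusted p = 0.00147) and the pump regulator Fxyd4 2.02-fold lower in inflamed mucosa (adjusted p = 0.00043) and 1.46-fold lower in tumour (adjusted p = 0.0127). Atp1b3 and Fxyd3 did not pass. Of 5 other aquaporins, Aqp11 was 2.36-fold lower in tumour than in normal mucosa (adjusted p = 0.0022) and Aqp7 was called lower as well (adjusted p = 0.0251), with means near background of 5.84 in tumour and 6.18 in normal mucosa, while Aqp3 did not pass.

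Among 10 regulators of ENaC, 7 were lower in tumour and 5 in inflamed mucosa than in normal mucosa, and none was higher (at an unadjusted p below 0.05, Tsc22d3, named after its values were seen, was higher in inflamed mucosa). Nr3c2, the mineralocorticoid receptor through which aldosterone acts, was 2.99-fold lower in tumour (adjusted p = 6.66e-06) and 1.83-fold lower in inflamed mucosa (adjusted p = 0.00204). Hsd11b2, the enzyme that shields this receptor from glucocorticoids, was 1.79-fold lower in tumour than in normal mucosa (adjusted p = 0.000962) and differed by -0.05 between inflamed and normal mucosa (adjusted p = 0.825). The aldosterone-induced kinase Sgk1 was 1.70-fold lower in tumour (adjusted p = 0.000645) and 1.49-fold lower in inflamed mucosa (adjusted p = 0.00892). Nedd4l, the ubiquitin ligase that removes ENaC from the membrane, was 2.00-fold lower in tumour (adjusted p = 0.000152). Tmprss4, a membrane protease, was the regulator called higher in tumour than in inflamed mucosa (1.30-fold, adjusted p = 0.0252), where 4 others were lower. Its tumour and inflamed arrays overlapped. The Tmprss4 call was lost without adenocarcinoma 2, 4 or 6 and without inflamed mucosa 2, 3 or 4. It was also lost with the replicate block over all arrays and with centring on the pan-epithelial markers. Neither Prkg2 nor Vipr1, upstream of Cftr, passed in any comparison, nor did they at an unadjusted p below 0.05. Prkg2 averaged 5.15, 4.94 and 5.06 in tumour, inflamed and normal mucosa, below the level of absent transcripts, so its values say nothing on a change.

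**Figure D4:**
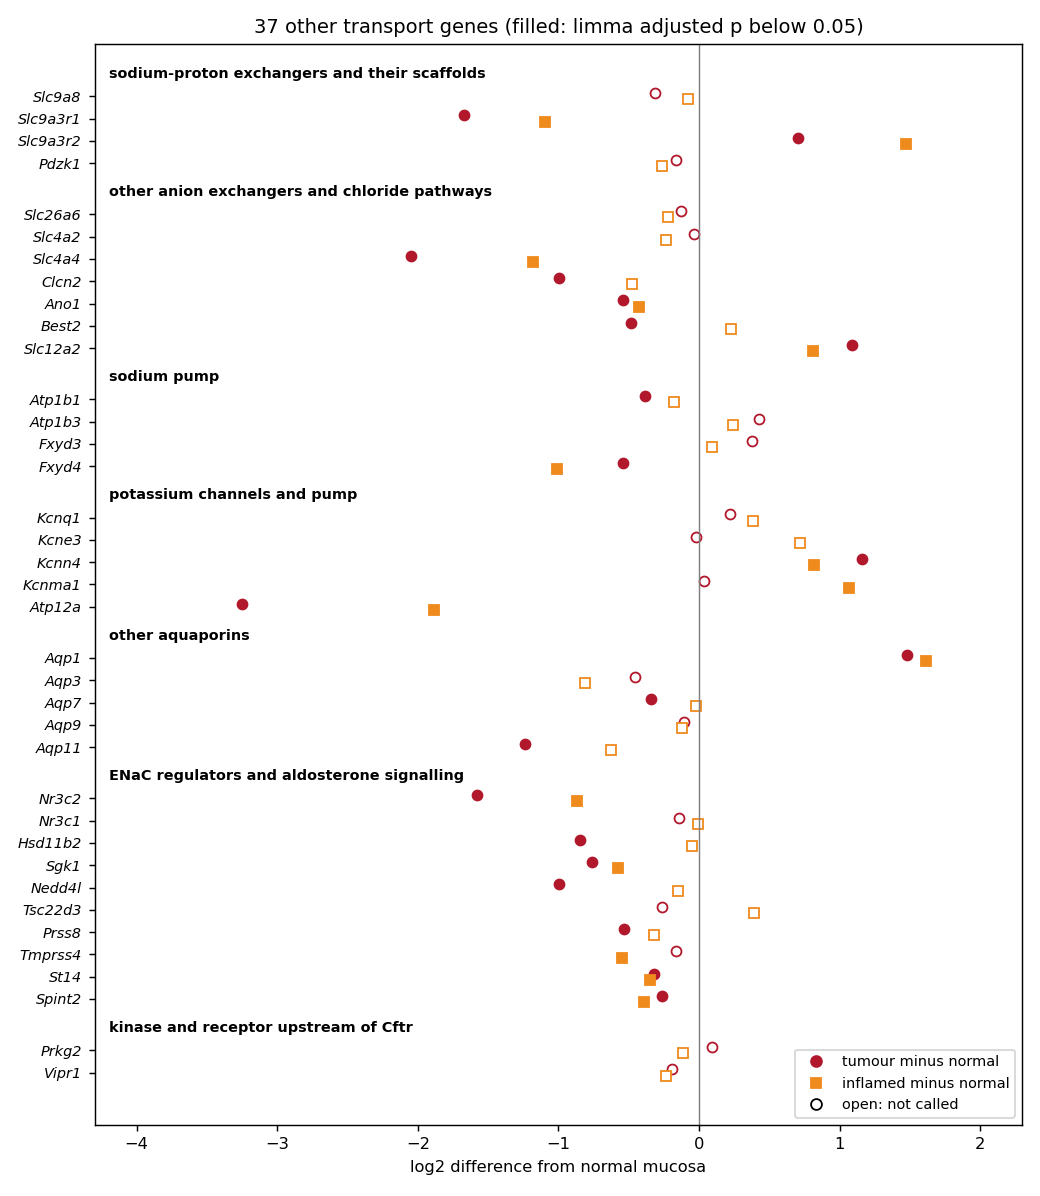
Log2 differences of 37 other transport genes from normal mucosa, for tumour (circles) and inflamed mucosa (squares), grouped by role; filled symbols passed an adjusted p below 0.05. Atp12a lies furthest left, and Aqp1, Slc9a3r2, Kcnn4 and Slc12a2 lie right of 0 with filled symbols in both comparisons.

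The genes whose profiles over the 13 arrays lay closest to each transport gene were found by the root mean square difference of mean-centred log2 values, with the 10 genes left out. For Slc9a3 the closest was the carbonic anhydrase Car4 (0.76 log2 units), and for Slc26a3 the serine protease Prss30 (0.57). For Aqp8 it was the peptide transporter Slc15a1 (0.53). Slc26a2 lay closest to Ugt2b34 (0.18) and the drug efflux pump Abcb1a (0.18), followed by the mineralocorticoid receptor Nr3c2 (0.21). Abcb1a was also closest to Slc9a2 (0.21). Scnn1a was closest to the phosphate transporter Slc20a1 (0.20), Scnn1b to the tight junction genes Cxadr and Ocln (both 0.18) and Scnn1g to Rdh9 (0.32). Aqp4 lay closest to Cd177 (0.29), and Cftr to Cldn2 (0.21), a tight junction protein that passes sodium and water. Small distances are easier to reach for genes that vary little, so they are not comparable between the large falls and the rest.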

How the data were processed

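The authors deposited 1 log2 value per transcript cluster and array, made by RMA in Affymetrix Expression Console (version 1.1) after scanning with Affymetrix GeneChip Command Console (version 2.0), as the design text states. RMA normalises arrays to a common distribution, which takes out differences in total RNA and compresses those of dim genes. No source used here gives the array's genome build, so no gene coordinates are printed, and promoter positions are those of the RefSeq table. No background measure per probe was used.

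Of 35556 clusters, 21789 name 1 gene in the platform annotation. Symbols were updated through Entrez identifiers (21698 matched RefSeq of GRCm38.p6), and each of 19938 genes was read from its cluster of highest mean. All 13 arrays entered 1 limma fit of 3 groups (limma 3.58.1, R 4.3.3, two-sided, Benjamini-Hochberg adjusted over 19938 genes). The fit was tested on simulated data, with the spread drawn independently for each array and so without pairs. Of genes changed by 0.5 log2 units it called 41.79% in tumour minus normal, 40.3% in inflamed minus normal and 50.75% in tumour minus inflamed. Of genes changed by 2 log2 units it called 98.48% in each. A gene that did not pass may therefore still differ by a small amount. The number of arrays limits the precision.

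The members and lists were chosen with earlier results of these data known. Named genes are all 10 members, up to 4 genes with the smallest adjusted p of each other list, genes called against their list's direction, and the closest profiles. In the 4 pairs of tumour and inflamed arrays of 1 number, the arrays' deviations from their group means had correlations of 0.319, 0.198, 0.199 and 0.387. Tumour and inflamed arrays of different numbers gave -0.318 to 0.185, so 0.198 and 0.199 lay only just above that range. The numbers were taken to pair tumour and inflamed arrays. Normal arrays gave -0.126 to 0.0413 and were not paired. Alternatives were replicate blocks, sex or age as covariates, 2 groups alone, other scalings, leaving out dim genes or single arrays, testing every cluster, other variance models and a threshold of 2-fold.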

Additional observations from a re-analysis of the deposited data

Results flagged for a closer look

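In 57 groups of 4 or 5 arrays (30 for the 10 transport genes and 27 for marker scores), 5 held an array far from its neighbours by Dixon's criterion, which chance meets in about 1 in 20 groups. None was a transport gene, so no single array stood apart in this way for any of the 10. All 5 were marker scores, each a mean over the genes of 1 list on the log2 scale. The squamous epithelium score was 10.88 on normal mucosa 1, against 6.26 to 6.58 on the other normal arrays. The leukocyte score was 7.89 on the same array, against 6.42 to 6.46. The fibroblast score was 7.93 on normal mucosa 6, against 6.87 to 7.05, and the enteric glia score was 6.15 on normal mucosa 2, against 5.92 to 5.96. The leukocyte score of inflamed mucosa 1 was 7.52, against 7.61 to 7.62 on the other inflamed arrays. Without normal mucosa 1, 10, 8 and 6 of the 10 transport genes were called in tumour minus normal, inflamed minus normal and tumour minus inflamed. Without normal mucosa 2, normal mucosa 6 or inflamed mucosa 1 the counts were 9, 8 and 6, as with all arrays. Beyond those given above, the genes' differences without these arrays are not listed.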

How the results depend on the processing

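No difference of the 10 transport genes changed sign under any of the alternatives run. With a threshold of 2-fold in the test, 7 of the 10 genes were called in tumour minus normal, 0 in inflamed minus normal and 2 in tumour minus inflamed, where Slc26a3 was not called (adjusted p = 0.112). Among the 37 other transport genes limma's test against 2-fold left 3, 0 and 0 calls (5, 3 and 0 at an unadjusted p below 0.05, and 2 of the 10 in inflamed minus normal), and over all genes 421, 278 and 34. With the replicate block over all arrays 9, 9 and 7 of the 10 genes and 6563, 4754 and 1183 of all genes were called in the same order, and pairs alone with the replicate block gave 8 in tumour minus inflamed. Over all genes tumour minus inflamed gave 2279 calls with the random replicate block, 2296 with array weights and 923 with all clusters tested, in place of 1420. Centring arrays on the pan-epithelial markers gave 4176 there and 19 among the other transport genes, and turned the calls among those genes in inflamed minus normal to 8 higher and 5 lower, in place of 5 and 10. Centring on the median over genes, an alternative chosen after seeing the data, gave 11103 calls in tumour minus normal (2491 higher, 8612 lower) and 11385 in inflamed minus normal (1875 higher, 9510 lower), with 24 of the other transport genes in the last, and left the members' counts at 9, 8 and 6. Leaving out each array in turn gave 9 to 10, 8 to 9 and 6 to 7 members called, 19 to 22, 13 to 17 and 8 to 12 other transport genes, and 5344 to 7645, 3524 to 5786 and 775 to 1652 genes overall. The 3524 and 775 came without inflamed mucosa 2, and 857 without inflamed mucosa 4. The causes were not tested.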

Other observations

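Adenocarcinoma 3 was the highest tumour for 9 of the 10 transport genes, and adenocarcinoma 2 for Cftr. Adenocarcinomas 4 and 6 were each the lowest for 4 genes, and adenocarcinoma 2 for Aqp8 and Scnn1b. The mature colonocyte score was 11.06, 11.04, 11.30, 11.07 and 10.68 in adenocarcinomas 1, 2, 3, 4 and 6. Adenocarcinoma 3 was highest there too. Adenocarcinoma 6 was lowest, whereas adenocarcinoma 4 lay close to 1 and 2. The pan-epithelial scores were 12.10, 12.07, 12.10, 12.07 and 12.14 in the same tumours, and the leukocyte scores 7.46, 7.77, 7.83, 8.62 and 8.25. The part of these cell types in the tumours' levels was not tested.

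Gaps between family members within an array were chosen after the values were seen and were not tested, and their absolute size depends on the probes. The Slc9a3 minus Slc9a2 gap was -4.22 ± 0.42 in adenocarcinoma, where Slc9a3 was near background, 0.10 ± 0.39 in inflamed mucosa and -1.45 ± 0.26 in normal mucosa (log2, SD, n = 5, 4 and 4). The Slc26a3 minus Slc26a2 gap was -2.57 ± 1.19, 0.14 ± 0.08 and 0.34 ± 0.04 in the same groups. Of the 3 gaps between ENaC subunits, Scnn1g minus Scnn1b was -1.15 ± 0.21, -0.05 ± 0.44 and 0.61 ± 0.14, with no overlap. Scnn1g minus Scnn1a was -1.50 ± 0.43, -0.99 ± 0.50 and -0.39 ± 0.42, and Scnn1a minus Scnn1b was 0.35 ± 0.34, 0.94 ± 0.25 and 1.00 ± 0.33, and the groups overlapped in both.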
